A study of Mus musculus with 25 samples.

Results

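Ep5 cells, also called EpRas, are mouse mammary epithelial cells transformed by oncogenic Ras, and the values below describe their RNA in culture without platelets. Of 25 samples in the series, 8 carry the source name of tumour cells alone, 5 of them on mouse exon arrays (numbered 1 to 5) and 3 on mouse gene arrays (numbered 7 to 9). These 8 were taken by that name and nothing else. In the remaining samples the same cells met platelets, a platelet pellet or platelet releasate in culture, or were mixed with platelets at lysis, and no comparison with them is made here. Per the labels, all 8 samples are of the C57BL/6 background, were grown in serum-containing DMEM and were sub-confluent. All come from 1 cell line, the labels do not say whether they were separate cultures, and the Ras oncogene itself was not analysed here. Gene array 8 also carries a tag that names platelets spun out by centrifugation, against its own source name and treatment label. It was kept.

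As background, the mammary duct has an inner layer of luminal cells, which carry keratins 8 and 18 and can make milk, and an outer layer of basal or myoepithelial cells, which carry keratins 5 and 14, p63 and smooth muscle proteins. Luminal cells are held together by adherens junctions, tight junctions and desmosomes, each built from its own transmembrane proteins and cytoplasmic plaque. Ras-transformed mammary cells are a classic model of how such an epithelium takes on mesenchymal genes and becomes invasive.

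The deposited values are log2 signals per probe set, with no detection call. A threshold was therefore set on each array at the 95th percentile of the genes of olfactory, vomeronasal and trace amine receptors, a group that serves chemical sensing and stands here for background. A gene counts as above background where every array of its table passed that array's threshold, and as within the background range where none did. The threshold lay between 4.07 and 4.34 for exon arrays, and for gene arrays between 5.47 and 5.51. Of 18997 genes on exon arrays 9482 were above background, 49.9%, and of 19938 on gene arrays 10108, 50.7%. Within the background range were 8289 genes for the exon type, 43.6%, and 9180 for the gene type, 46%, and the rest passed on some arrays only (6.45% and 3.26%). Of 17491 genes measured on both array types, 8650 were above background on both, 49.5%, and 6591 were within the background range on both, 37.7%. Without gene array 8 the count above on both was 8670. Those shares are the background for every count below. A signal within the background range is not proof that a gene is silent. Probe sets differ in how well they bind, so a rank is a rank of signal and not of RNA amount. Ranks are given as percentiles within a table, with the brightest gene at 100.

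**Figure D1:**
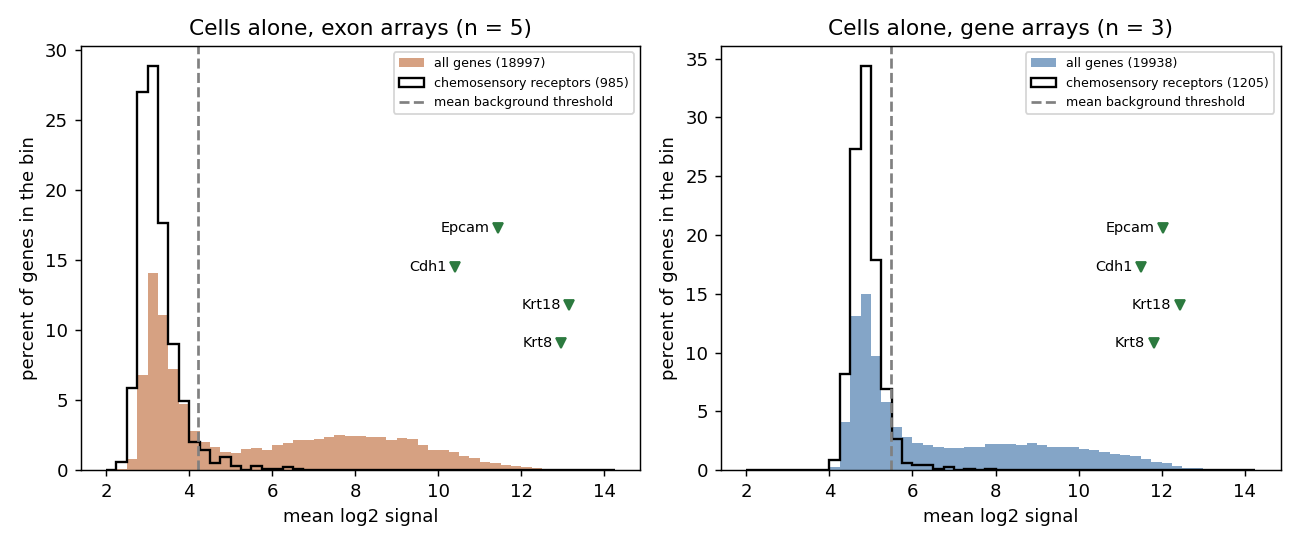
Share of genes (percent, vertical axis) by mean log2 signal (horizontal axis) in cells alone, on the exon arrays (left, n = 5) and the gene arrays (right, n = 3). The black outline is the chemosensory receptor genes, the dashed line is the mean background threshold, and the triangles mark the mean signals of 4 epithelial markers, all of which lie far to the right of the threshold; their heights have no meaning.

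The arrays of one type were close to each other. Spearman correlations over genes lay between 0.965 and 0.989 among exon arrays, with array 5 the lowest against the others, and among gene arrays between 0.990 and 0.991. The median SD of a gene above background was 0.289 for exon arrays and 0.086 for gene arrays. Means below are given with the SD over 5 exon arrays and over 3 gene arrays, and where a gene has a pair of values the exon value stands first.

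The epithelial label was checked against 4 marker genes, which were among the brightest on both array types. Krt18, the acidic keratin of simple epithelia (probe sets 6833382 and 10427075), read 13.22, 13.04, 13.05, 13.18 and 13.28 on exon arrays 1 to 5 and 12.50, 12.33 and 12.47 on gene arrays 7 to 9. Krt8, its basic partner (6838693 and 10432918), read 12.95, 12.85, 12.89, 13.08 and 13.01 on exon arrays and 11.79, 11.80 and 11.83 on gene arrays. Each array of both types thus showed both members of the luminal keratin pair, with percentile ranks of 99.94 and 99.5 for Krt18 and of 99.9 and 98.01 for Krt8. Epcam, an adhesion molecule of epithelial cells (6852882 and 10447383), read 11.18, 11.47, 11.50, 11.61 and 11.38 on exon arrays and 12.12, 11.88 and 12.11 on gene arrays. Cdh1, which encodes E-cadherin (6978923 and 10575052), read 11.10, 10.23, 10.07, 10.23 and 10.36 on exon arrays and 11.52, 11.46 and 11.55 on gene arrays. The 4 epithelial markers were thus far above background on all 8 arrays, gene array 8 included.

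Of 5 simple keratins measured on both types, only that pair was above background. Krt19, a keratin of many ductal cells, averaged 3.08 ± 0.14 on exon arrays and 4.56 ± 0.036 on the gene arrays, and Krt20 and Krt23 were likewise within the background range. Krt7, another ductal keratin, and Krt80 were measured on the gene arrays alone, where Krt7 averaged 12.28 ± 0.075 and Krt80 9.03 ± 0.19, both above background. Among 9 stratified keratins, 2 were above background on both types (1 with the 99th percentile as threshold) and 6 were within the background range on both types, including Krt5 at 3.55 ± 0.16 and 4.74 ± 0.17. Krt14, the usual partner of Krt5 in basal cells, was above background on every array. It read 10.54, 10.01, 10.34, 10.86 and 11.17 on the exon arrays, at percentile 96.1, and 7.19, 7.63 and 7.40 on the gene arrays, at percentile 65.97. Krt14 was thus bright on one array type and moderate on the other, while Krt5 passed on none of the 8 arrays. Krt10, a keratin of differentiating epidermis, was weakly above background on both types (4.97 ± 0.17 and 5.82 ± 0.074), and Krt16, a stress keratin, on the exon arrays only (5.77 ± 0.51, against 4.77 ± 0.12 on the gene arrays).

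Genes above and within background differed as groups in the base composition of their start regions. RefSeq windows of 300 bases, 250 before to 50 after each annotated start on build GRCm38.p6, were available as a single window for 5657 of the genes above background on both types and 4419 of the genes within the background range on both. The median ratio of observed to expected CG pairs was 0.814 in the genes above background and 0.286 in those within it (0.341 with the chemosensory receptors left out). A ratio of 0.6 or more was found in 82.4% of the windows of genes above background, in 22.7% of those within it and in 35.7% of all 22862 windows. The letters TATAAA, on either strand, were in 6.2% of the windows of genes above background, in 20% of those within it and in 14.8% of all. These shares are descriptions over genes and were not tested. The windows of 4 genes are shown, chosen with their values known, because they include the bright Krt18, Krt8 and Met, the receptor of hepatocyte growth factor, and the background-range Krt5. Each CG pair is in capitals, and the strand of each window is that of its gene.
Krt18, chr15:102027966-102028265, plus strand: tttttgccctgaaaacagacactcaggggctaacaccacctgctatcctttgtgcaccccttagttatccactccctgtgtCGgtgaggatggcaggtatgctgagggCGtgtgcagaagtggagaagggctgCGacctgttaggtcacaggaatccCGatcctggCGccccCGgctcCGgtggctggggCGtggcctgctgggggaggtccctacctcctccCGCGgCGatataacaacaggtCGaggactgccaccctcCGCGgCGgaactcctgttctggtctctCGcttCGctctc
Krt8, chr15:102004293-102004592, minus strand: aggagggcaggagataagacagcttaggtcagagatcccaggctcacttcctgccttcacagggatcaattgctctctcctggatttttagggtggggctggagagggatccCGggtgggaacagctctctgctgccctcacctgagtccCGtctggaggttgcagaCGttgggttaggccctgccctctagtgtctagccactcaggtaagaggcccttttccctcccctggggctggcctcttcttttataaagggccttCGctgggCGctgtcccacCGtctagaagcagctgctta
Krt5, chr15:101712856-101713155, minus strand: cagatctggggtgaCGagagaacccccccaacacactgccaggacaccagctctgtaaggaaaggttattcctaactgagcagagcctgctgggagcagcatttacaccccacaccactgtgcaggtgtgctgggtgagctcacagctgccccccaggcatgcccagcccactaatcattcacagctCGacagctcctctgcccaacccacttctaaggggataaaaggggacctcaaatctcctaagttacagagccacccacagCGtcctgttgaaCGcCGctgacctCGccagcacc
Met, chr6:17463707-17464006, plus strand: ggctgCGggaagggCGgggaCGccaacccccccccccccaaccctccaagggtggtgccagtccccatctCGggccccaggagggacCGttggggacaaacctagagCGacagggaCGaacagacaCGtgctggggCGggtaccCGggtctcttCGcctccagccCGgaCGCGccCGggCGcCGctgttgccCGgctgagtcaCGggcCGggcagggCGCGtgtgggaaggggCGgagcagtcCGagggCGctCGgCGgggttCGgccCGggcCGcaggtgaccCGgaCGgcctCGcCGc
The Krt18 window holds 17 CG pairs (a ratio of 0.60) and the Met window 34 (0.79). The windows of Krt8 and Krt5 hold 6 each (0.24 and 0.25), so that Krt8, bright on all 8 arrays, and Krt5, in the background range on all 8, do not differ in this measure.

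Most adherens junction genes were above background. Of 11 members measured on both types, 9 were above background on both (81.8%, against 49.5% of all genes), and the median member ranked at percentile 83.7 of the exon table and 90.9 of the gene table. The catenins tie cadherins to actin. Ctnnb1, beta-catenin, read 12.10, 12.22, 12.22, 12.13 and 12.24 on exon arrays and 11.64, 11.60 and 11.58 on gene arrays. Jup, plakoglobin, averaged 11.66 ± 0.40 and 10.39 ± 0.14, Ctnna1, alpha-catenin, 9.47 ± 0.19 and 11.49 ± 0.10, and Ctnnd1, p120-catenin, 8.82 ± 0.26 and 10.99 ± 0.056. Every catenin gene on the list was thus well above threshold on all arrays. Of the nectins, which form a second adhesion system at the same junction, Nectin1, Nectin2 and Nectin4 were above background on both types. Nectin1 (5.84 ± 0.12) and Nectin4 (5.84 ± 0.10) passed the 99th percentile on no gene array. With that threshold 7 members of the list were above background on both types. Nectin3 passed on 1 exon array and on all gene arrays. Afdn, the afadin plaque protein that binds nectins, was measured on the gene arrays alone and averaged 11.27 ± 0.061. Cdh3, P-cadherin of basal cells, was the only member within the background range on both types, at 3.47 ± 0.11 and 4.66 ± 0.10.

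Tight junction genes separated by family member. Of 29 measured on both types, 18 were above background on both (62.1%, against 49.5% of all genes). Another 9 were within the background range on both, and Tjp3 and Cldn19 gave other calls. Claudins, which seal the space between cells or form ion pores, made up all 9 of the members in the background range (Cldn2, Cldn5, Cldn8, Cldn10, Cldn11, Cldn14, Cldn15, Cldn16 and Cldn18). Cldn6, a claudin of early epithelia, read 8.77, 9.58, 9.57, 8.94 and 8.88 on exon arrays and 11.53, 11.40 and 11.54 on gene arrays. Cldn9 averaged 11.20 ± 0.13 and 8.68 ± 0.047, and Cldn3, Cldn4 and Cldn7, which are common in glandular epithelia, averaged 10.70 ± 0.073, 10.52 ± 0.17 and 9.69 ± 0.56 on exon arrays and 7.78 ± 0.16, 8.46 ± 0.39 and 8.58 ± 0.34 on the gene arrays. Cldn1, Cldn12 and Cldn23 were above background as well. By contrast, Cldn2, a cation pore, read 3.10 ± 0.13 and 4.56 ± 0.12, Cldn5, the claudin of endothelium, 2.77 ± 0.14 and 4.84 ± 0.086, and Cldn8, 3.02 ± 0.093 and 4.88 ± 0.055. The claudins thus fell into 8 above and 9 within background, with only Cldn19 between. The scaffold and polarity genes were above background on both types, with Tjp1 (ZO-1) at 9.26 ± 0.15 and 11.13 ± 0.077, Cgnl1 (paracingulin) at 9.65 ± 0.14 and 10.61 ± 0.12, F11r (JAM-A) at 10.47 ± 0.17 and 9.73 ± 0.25 and Ocln (occludin) at 8.91 ± 0.36 and 8.37 ± 0.11. Crb3, an apical polarity protein, averaged 7.66 ± 0.35 on the exon arrays but only 5.89 ± 0.17 on the gene arrays, where it passed the 95th percentile and not the 99th. Marveld2, Marveld3, Pard3, Pard6b and Cgn were above background as well. Tjp3 (ZO-3) was above background on the exon arrays only, at 4.73 ± 0.19.

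Desmosomes, the spot junctions that anchor keratin filaments, were mostly above background in their genes. Of 11 members measured on both types, 8 were above background on both (72.7%). Dsp, desmoplakin, the plaque protein that binds keratin, read 9.90, 9.17, 9.15, 9.55 and 9.51 on exon arrays and 10.28, 10.08 and 10.19 on gene arrays. The plakophilins Pkp1, Pkp2, Pkp3 and Pkp4 were above background on every array, with Pkp2 at 9.51 ± 0.21 and 9.83 ± 0.18, as was Ppl, periplakin. Among the desmosomal cadherins, Dsg2 averaged 7.56 ± 0.15 and 7.11 ± 0.18. Dsc2 read 4.70, 4.75, 5.04, 6.45 and 6.55 on exon arrays and 7.44, 8.01 and 7.35 on gene arrays. Exon arrays 4 and 5 were thus the highest exon arrays for Dsc2. Dsg3 (3.10 ± 0.11 and 4.46 ± 0.073) and Dsc3 (2.91 ± 0.095 and 4.46 ± 0.033), the cadherins of stratified epithelia, were within the background range. Evpl, envoplakin, was above background on the exon arrays and on 1 gene array.

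Few connexins, the subunits of gap junction channels, gave signal. Of 10 measured on both types, 2 were above background on both (20%). Gja1, connexin 43, read 6.80, 7.28, 7.40, 6.996 and 6.85 on the exon arrays, at percentile 67.03, and 11.77, 11.62 and 11.65 on the gene arrays, at percentile 97.6. Gjc1, connexin 45, averaged 7.04 ± 0.39 and 8.89 ± 0.13. Gjb2, connexin 26, which is known from secretory mammary cells, was weakly above background on the exon arrays (4.62 ± 0.41) and within the range on the gene arrays (4.85 ± 0.035). Gjb1, Gjb6, Gja4, Gja5 and Gjd2 were within the range on both, and Gja3 and Gjb5 passed on some exon arrays only.

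**Figure D2:**
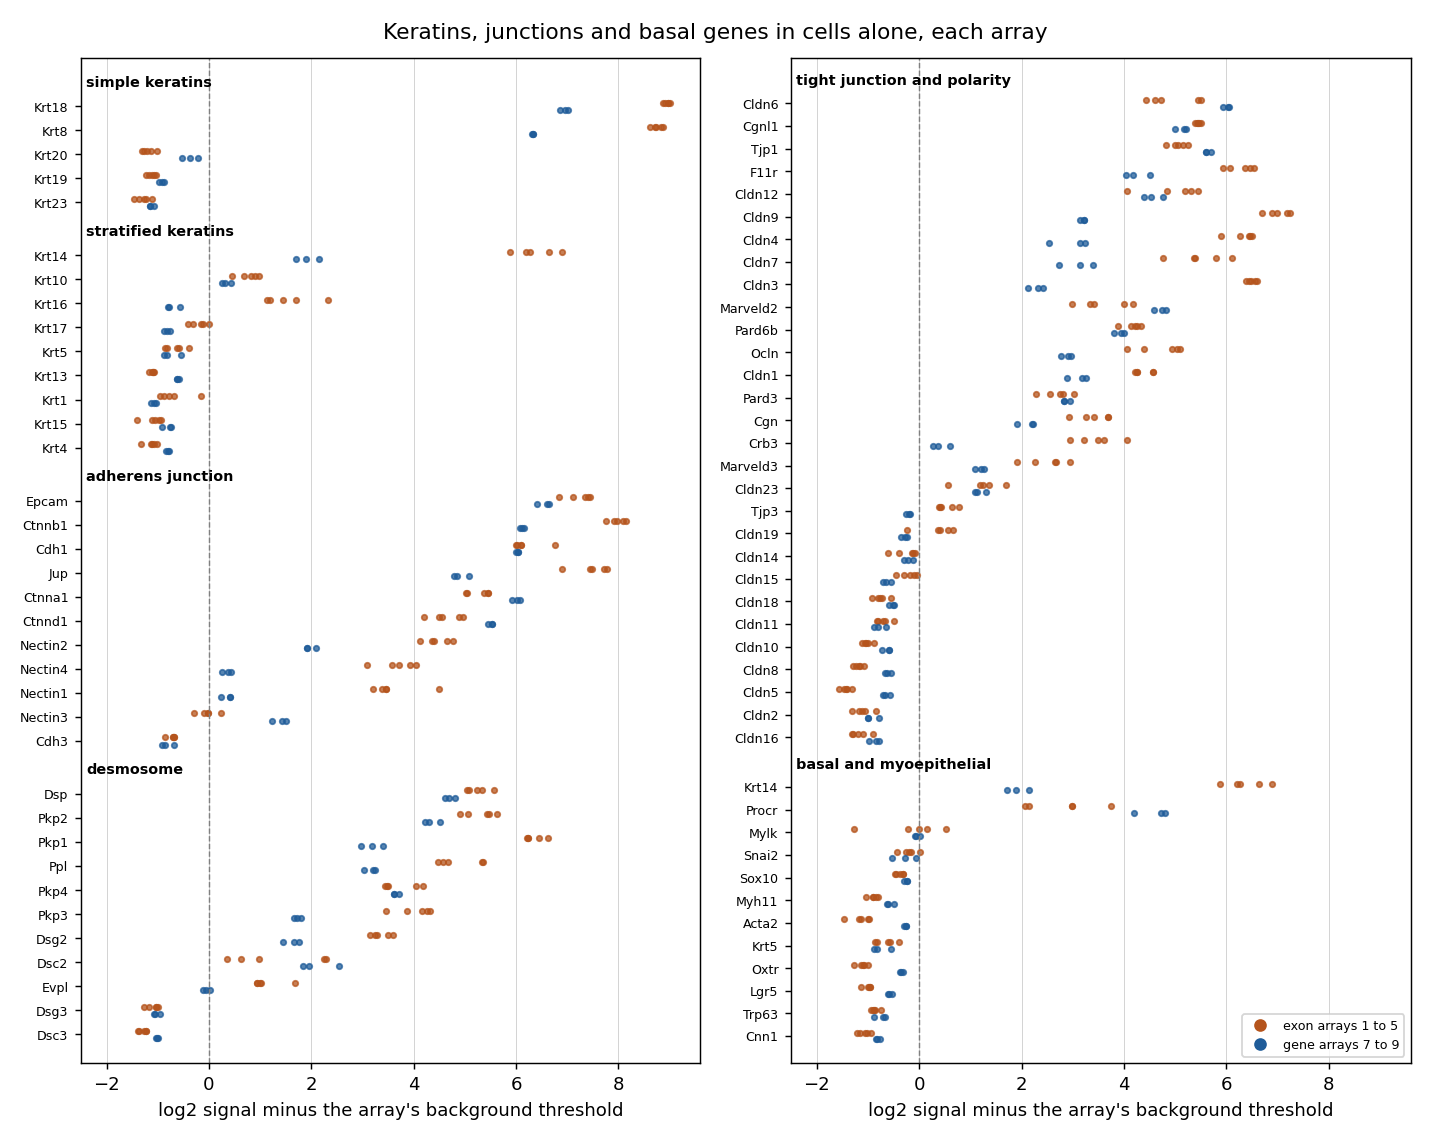
Each point is 1 array of cells alone, and the horizontal axis is its log2 signal minus that array's background threshold (dashed line at 0), with exon arrays 1 to 5 in orange and gene arrays 7 to 9 in blue. Krt18 and Krt8 lie farthest to the right among the keratins, most adherens and desmosome genes lie right of the line, the claudins split to both sides, and of the basal genes Krt14 and Procr alone lie clear of the line on both array types.

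Of 24 luminal and epithelial transcription factors and splicing factors, 15 were above background on both types (62.5%, against 49.5% of all genes). Of the others, 5 were within the range on both and 4 gave other calls. With the 99th percentile as threshold the count was 10 of 24, where that of all genes was 7255 of 17491. Esrp1, an epithelial splicing regulator, read 10.49, 10.64, 10.80, 10.58 and 10.90 on exon arrays and 10.71, 10.55 and 10.85 on gene arrays. Grhl2, a factor that maintains junction genes, averaged 8.50 ± 0.41 and 9.93 ± 0.15. Gata3, which specifies luminal mammary cells, read 9.19, 8.78, 8.77, 8.63 and 9.27 on exon arrays and 7.52, 7.90 and 7.51 on gene arrays, percentiles 84.7 and 67.9. These 3 genes were far above threshold on all 8 arrays. Runx1, Klf5, Tfap2a and Sox9 were also above background on both types, Runx1 at 8.99 ± 0.25 and 9.88 ± 0.069 and Klf5 at 9.20 ± 0.20 and 8.59 ± 0.089, as were Cebpb, Elf3, Esrp2, Klf4, Spdef and Ovol1. The prolactin effectors Stat5a (7.23 ± 0.21 and 7.19 ± 0.19) and Stat5b (7.76 ± 0.25 and 7.25 ± 0.10) were at intermediate rank. Foxa1, a partner of the oestrogen receptor in luminal cells, was within the background range on all arrays, at 3.93 ± 0.24 and 5.32 ± 0.015. So were Elf5, the factor of milk-secreting alveolar cells (3.37 ± 0.18 and 4.82 ± 0.040), Tfap2c (3.39 ± 0.077 and 4.80 ± 0.14), Tbx3 (3.07 ± 0.027 and 5.03 ± 0.060) and Grhl1 (3.39 ± 0.28 and 5.02 ± 0.047). Ovol2 was above background on the exon arrays and Cited1 on the gene arrays only, while Ehf and Grhl3 passed on some arrays of one type.

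The basal and myoepithelial list stood at 2 of 12 above background on both types (16.7%), with 8 within the range. Trp63, which encodes p63, the master factor of basal cells, read 3.46, 3.19, 3.17, 3.35 and 3.51 on exon arrays and 4.78, 4.81 and 4.63 on gene arrays. Acta2, smooth muscle actin, averaged 3.05 ± 0.15 and 5.22 ± 0.0071, Cnn1, calponin, 3.13 ± 0.018 and 4.68 ± 0.052, and Myh11, smooth muscle myosin, 3.31 ± 0.079 and 4.91 ± 0.071. Acta2, Cnn1 and Myh11 were thus in the background range on all 8 arrays, as were the oxytocin receptor gene Oxtr, Sox10 and Lgr5. Beside Krt14, the member above background was Procr, the protein C receptor, which marks a small stem-like population in the mouse gland. Procr read 6.41, 7.10, 7.05, 7.97 and 6.42 on exon arrays and 10.29, 9.67 and 10.24 on gene arrays. Mylk, myosin light chain kinase, passed on some arrays of each type, and Snai2 on 1 exon array.

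Of 21 mesenchymal genes measured on both types, 11 were above background on both (52.4%), a share near the 49.5% of all genes. Fn1, fibronectin, read 10.79, 10.13, 10.29, 9.87 and 10.57 on exon arrays and 12.12, 12.09 and 11.98 on gene arrays. Cdh2, N-cadherin, read 9.46, 9.83, 9.87, 8.67 and 8.12 on exon arrays and 11.002, 11.14 and 10.85 on gene arrays, so that Cdh1 and Cdh2 were above background on the same 8 arrays. Among the exon arrays, Cdh2 was lowest on arrays 4 and 5. The matrix genes Sparc (9.98 ± 0.25 and 12.13 ± 0.084) and Tnc, tenascin C (10.10 ± 0.35 and 11.36 ± 0.43), and the calcium-binding protein gene S100a4 (9.61 ± 0.33 and 12.68 ± 0.083) ranked above percentile 90 on both types. Vim, vimentin, the filament protein of mesenchymal cells, read 10.76, 10.999, 11.21, 8.13 and 8.45 on exon arrays and 8.99, 10.31 and 7.90 on gene arrays. Vim was above background on every array, and among the exon arrays it was lowest on arrays 4 and 5. Of 6 Snail, Zeb and Twist genes, which repress epithelial genes, 3 were above background on both types, Twist1 at 6.38 ± 0.25 and 7.86 ± 0.022, Zeb2 at 4.82 ± 0.29 and 7.55 ± 0.19 and Snai1 at 5.61 ± 0.72 and 5.998 ± 0.035. Zeb1 was within the range on the exon arrays (3.48 ± 0.12) and above it on the gene arrays, at 6.09, 6.85 and 5.70. The fibrillar collagen genes Col1a2 (3.88 ± 0.10 and 5.20 ± 0.036) and Col3a1 (3.70 ± 0.10 and 5.04 ± 0.065), and Postn, Pdgfrb and Thy1, were within the background range on both types. Col1a1 was weakly above it on the gene arrays and on some exon arrays, Cdh11 was above it on the exon arrays only, Twist2 passed on some exon arrays and Snai2 on 1.

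The milk and secretory list held members above and within background. Of 16 measured on both types, 6 were above background on both (37.5%, against 49.5% of all genes). With the 99th percentile as threshold the count was 3, where that of all genes was 7255 of 17491. Plin2, which coats lipid droplets, read 12.50, 12.78, 12.70, 12.81 and 12.67 on exon arrays and 12.46, 12.24 and 12.49 on gene arrays, at percentiles 99.8 and 99.4. Mfge8, a protein of the milk fat globule, averaged 10.01 ± 0.23 and 8.69 ± 0.19, Xdh, xanthine dehydrogenase, 8.68 ± 0.44 and 8.20 ± 0.32, and Btn1a1, butyrophilin, 7.19 ± 0.26 and 6.26 ± 0.45. These 4 genes, whose products take part in milk fat secretion, were above background on all arrays. They were put together with their values known, and the list as a whole was below the share of all genes. Lcn2, lipocalin 2, read 6.16, 6.85, 6.38, 5.41 and 7.81 on exon arrays and 8.74, 8.19 and 8.26 on gene arrays. Of the casein genes, Csn3, kappa-casein, read 4.61, 5.04, 4.76, 4.73 and 5.09 on exon arrays and 8.99, 8.23 and 8.52 on gene arrays, and Csn2, beta-casein, averaged 4.60 ± 0.30 and 5.58 ± 0.13, close to the thresholds. The other caseins Csn1s1, Csn1s2a and Csn1s2b, the whey protein gene Wap (3.45 ± 0.26 and 4.80 ± 0.019), Ltf, Muc1, Muc4, Folr1 and Cel were within the background range on both types.

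Markers of other cell types were largely within the background range. None of 8 endothelial, 3 erythroid, 4 adipocyte or 27 other-tissue genes was above background on both types, although Ckm, Acta1 and Myh1 passed on every array of one type. The leukocyte list had 2 of 8 above, the monocyte genes Cd14 (8.05 ± 0.36 and 7.08 ± 0.19) and Cd68 (6.44 ± 0.55 and 6.68 ± 0.13), while Ptprc, the pan-leukocyte antigen CD45, was at 3.06 ± 0.11 and 4.65 ± 0.081. Fibroblast markers had 1 of 7 above, Pdgfra (4.78 ± 0.43 and 7.03 ± 0.11), with Dcn, decorin, at 2.95 ± 0.058 and 4.42 ± 0.055. The platelet list had 1 of 6. That gene was Ppbp, a chemokine of platelet granules, which read 5.19, 6.56, 5.90, 7.58 and 5.84 on exon arrays and 9.17, 7.88 and 9.84 on gene arrays. Pf4, platelet factor 4, averaged 3.25 ± 0.11 and 4.74 ± 0.11, and Gp9, Clec1b and Itga2b were likewise within the background range on all arrays, while Treml1 passed on the gene arrays and some exon arrays. Gene array 8, the one with the contradictory platelet tag, had the lowest Ppbp of the gene arrays and read 4.78 for Pf4. In such bulk RNA few cells of a type and little RNA per cell cannot be told apart. With the 99th percentile as threshold the platelet and fibroblast lists had 0 above background, and the part of other cells in any single signal was not tested.

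Of 45 receptor tyrosine kinases measured on both types, 18 were above background on both (40%, against 49.5% of all genes) and 25 within the range on both. Met, the receptor of hepatocyte growth factor (6944380 and 10536505), read 10.73, 10.85, 10.98, 10.81 and 10.82 on exon arrays and 11.50, 11.63 and 11.68 on gene arrays. Axl, the receptor of Gas6, read 10.92, 11.09, 11.28, 10.57 and 11.02 on exon arrays and 10.32, 10.37 and 10.34 on gene arrays. Epha2, an ephrin receptor, averaged 11.23 ± 0.11 and 9.72 ± 0.17. These receptors had the highest mean ranks of the list, at percentiles 97.1 and 97.3 for Met and 97.6 and 90.5 for Axl. In the epidermal growth factor receptor family, Erbb3 averaged 10.22 ± 0.28 and 8.42 ± 0.10, Erbb2 9.17 ± 0.50 and 8.53 ± 0.057, and Egfr 6.96 ± 0.12 and 8.85 ± 0.32, while Erbb4 lay within the background range at 3.08 ± 0.055 and 4.82 ± 0.020. In the fibroblast growth factor receptor family, Fgfr1 read 9.43, 9.01, 9.01, 8.15 and 9.64 on exon arrays and 8.52, 8.48 and 8.48 on gene arrays, against 3.19 ± 0.094 and 4.90 ± 0.080 for Fgfr2, which lay within the background range with Fgfr3 and Fgfr4. Kit, the stem cell factor receptor known from luminal progenitors, read 3.22, 3.11, 3.22, 3.18 and 3.02 on exon arrays and 4.76, 4.71 and 4.84 on gene arrays. Mst1r, the Ron kinase related to Met, averaged 3.25 ± 0.10 and 4.93 ± 0.033. Both receptors stayed within the background range on every array. Igf1r (8.33 ± 0.38 and 8.54 ± 0.076) and Insr (6.56 ± 0.29 and 9.02 ± 0.15), the receptors of insulin-like growth factor and insulin, were above background, as were Ryk, Epha4, Ephb4, Ptk7, Epha1, Ephb3, Ddr1, Pdgfra and Tyro3. The 25 in the background range had means between 2.90 and 3.83 on exon arrays, and on gene arrays between 4.53 and 5.26. Among them, the endothelial receptors Kdr, Flt1, Tek and Tie1 and the neurotrophin receptors Ntrk2 and Ntrk3 are known from other cell types. Ret was above background on the gene arrays and on 1 exon array, and Mertk passed on 1 gene array.

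The receptors of TGF-beta, the cytokine that EpRas cells are known for responding to, were above background on all arrays. Tgfbr1, the type I receptor, read 9.72, 10.14, 10.23, 9.95 and 9.96 on exon arrays and 10.46, 10.46 and 10.45 on gene arrays. Tgfbr2, the type II receptor, read 9.72, 9.67, 9.75, 9.24 and 9.58 on exon arrays and 9.11, 9.20 and 9.19 on gene arrays. Both chains were thus above background, at percentiles of 93.1 and 91.3 for Tgfbr1 and 90.5 and 81.3 for Tgfbr2. Tgfbr3, betaglycan, a co-receptor without kinase activity, was within the background range at 3.75 ± 0.13 and 4.97 ± 0.051, while Eng, endoglin, the other co-receptor, averaged 7.87 ± 0.34 and 7.40 ± 0.17. Of the BMP receptors, Bmpr1a (10.11 ± 0.15 and 11.26 ± 0.087) and Bmpr2 (9.15 ± 0.24 and 11.02 ± 0.082) were above background and Bmpr1b (3.08 ± 0.10 and 4.62 ± 0.040) was not. In all, 8 of 14 were above background on both types (57.1%, against 49.5% of all genes). The activin receptor genes Acvr1, Acvr1b and Acvr2a were among the 8, Acvr1c and Amhr2 were within the range, Acvrl1 was above it on the gene arrays only, and Acvr2b passed on some gene arrays.

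Of 25 integrin subunits, 10 were above background on both types (40%, against 49.5% of all genes) and 12 within the range on both. Itgb1, the beta subunit shared by many matrix receptors, read 11.13, 11.74, 11.43, 11.42 and 10.84 on exon arrays and 11.94, 11.77 and 11.99 on gene arrays. Its laminin-binding partners Itga3 (12.14 ± 0.12 and 11.32 ± 0.0078) and Itga6 (9.97 ± 0.38 and 11.82 ± 0.12) were bright, as was Itgb4 (10.41 ± 0.30 and 9.19 ± 0.12), the hemidesmosome subunit that pairs with Itga6. These 4 subunits were above background on every array. Itgav averaged 10.26 ± 0.25 and 10.97 ± 0.090, with its partners Itgb5 and Itgb6 above background and Itgb3 (3.37 ± 0.032 and 5.17 ± 0.041) and Itgb8 within the range. Itgb2, the beta subunit of leukocyte integrins, read 8.31, 9.06, 8.86, 8.96 and 8.81 on exon arrays and 8.30, 8.43 and 8.28 on gene arrays, above background. Of its alpha partners, Itgal, Itgam and Itgax were within the range on all arrays, and Itgad was above the exon-array threshold only. Itga2 and Itga5 were also above background, and Itga2b, Itga4, Itga8, Itga9, Itga10, Itga11 and Itgae were within the range. Itgb7 and Itga7 also gave other calls.

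**Figure D3:**
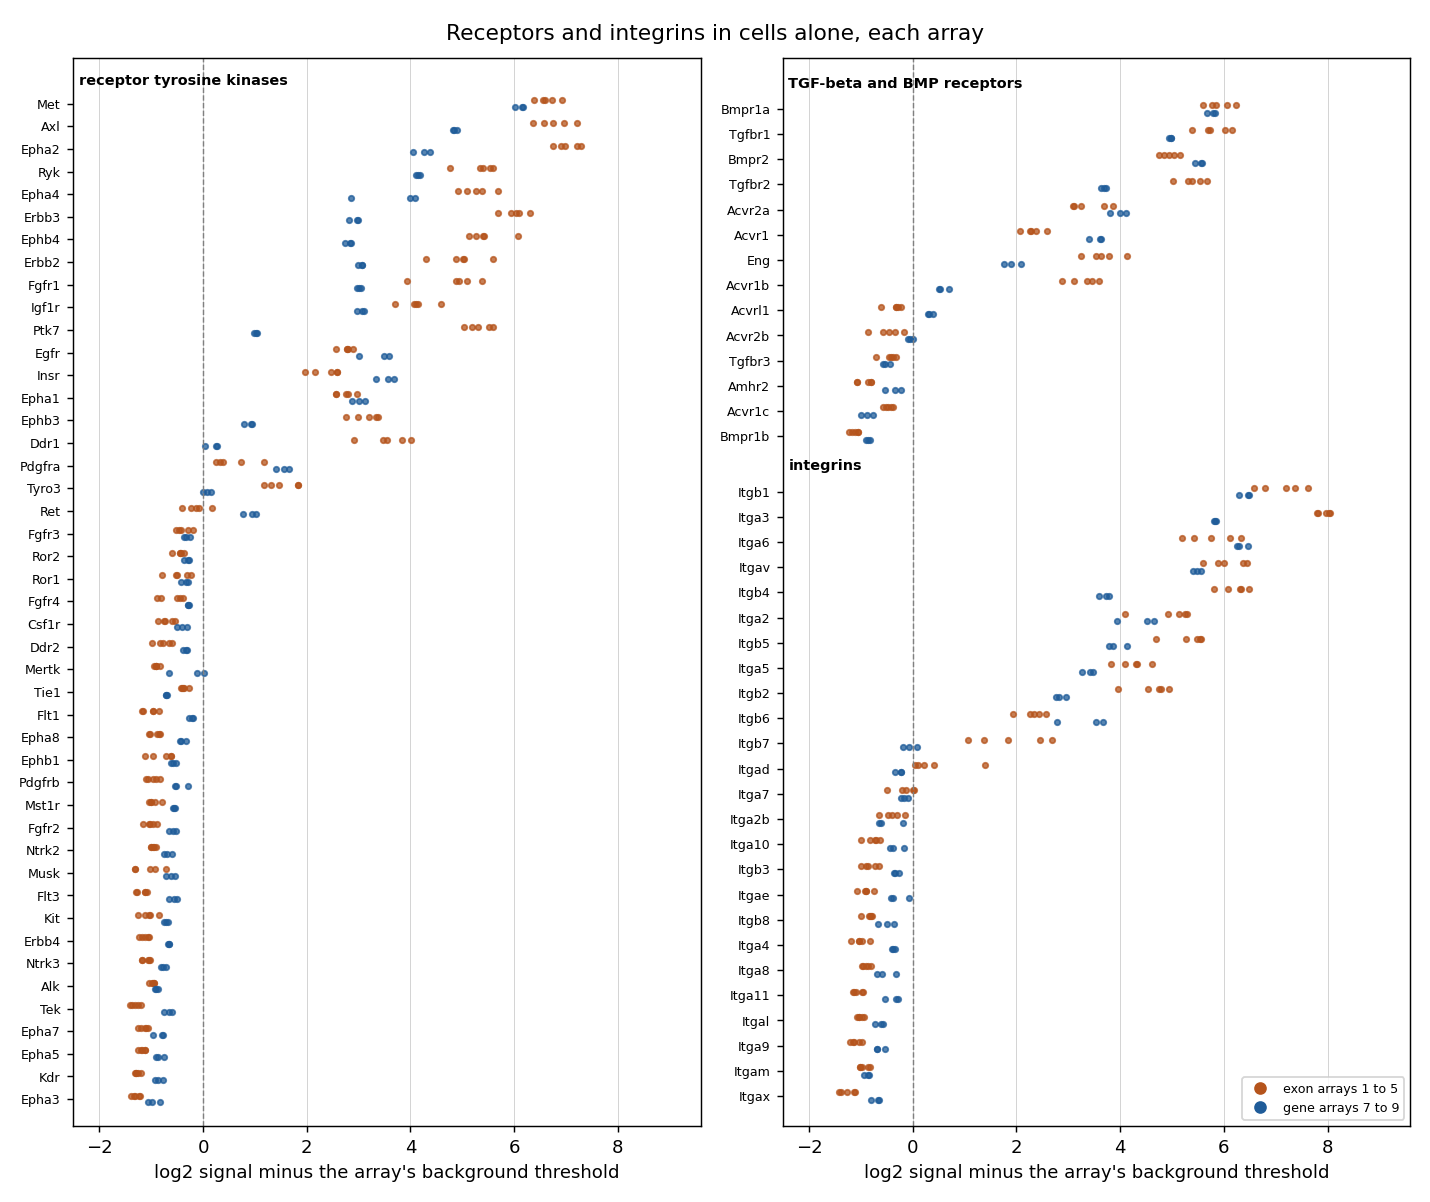
Each point is 1 array of cells alone, and the horizontal axis is its log2 signal minus that array's background threshold (dashed line at 0), with exon arrays 1 to 5 in orange and gene arrays 7 to 9 in blue. Met, Axl and Epha2 lie far right of the line, and so do Tgfbr1, Tgfbr2, Bmpr1a, Bmpr2 and the integrin genes down to Itgb2, while Kit, Erbb4, Mst1r, Tgfbr3 and Bmpr1b lie left of it on every array.

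Cytokine and death receptors were above background for 16 of 20 genes (80%). Tnfrsf10b, the mouse TRAIL death receptor, averaged 9.23 ± 0.19 and 10.24 ± 0.15, Tnfrsf1a, the TNF receptor, 8.94 ± 0.30 and 7.92 ± 0.088, and Ghr, the growth hormone receptor, 8.30 ± 0.30 and 10.72 ± 0.044. The shared chain Il6st (gp130) was above background (8.31 ± 0.19 and 9.96 ± 0.011) together with Osmr, the oncostatin M receptor (5.84 ± 0.29 and 8.74 ± 0.35), whereas Lifr, the leukaemia inhibitory factor receptor, was within the range (3.11 ± 0.053 and 4.47 ± 0.092). The chains of the interferon receptors, Ifnar1, Ifnar2, Ifngr1 and Ifngr2, were above background on all arrays. Fas (3.55 ± 0.10 and 4.92 ± 0.14), Cd40 (3.49 ± 0.24 and 5.33 ± 0.038) and Il22ra1 were within the range. The genes Ltbr, Tnfrsf1b, Il4ra, Il10rb, Il13ra1, Il17ra and Il1rap completed those above it.

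Of 15 Notch and Wnt receptors, 10 were above background on both types (66.7%, against 49.5% of all genes). With the 99th percentile as threshold the count was 6 of 15, where that of all genes was 7255 of 17491. Fzd6, a Frizzled receptor of planar polarity, had the highest mean rank, at 9.97 ± 0.14 and 9.85 ± 0.11, with the Wnt co-receptors Lrp5 (8.71 ± 0.54 and 8.94 ± 0.18) and Lrp6 (7.13 ± 0.27 and 9.91 ± 0.088) also above background. Notch2 averaged 8.82 ± 0.46 and 8.14 ± 0.053 and Notch1 6.996 ± 0.48 and 6.35 ± 0.088. Notch3 read 6.90, 5.63, 5.63, 5.57 and 7.41 on exon arrays and 5.83, 5.82 and 5.81 on gene arrays. Fzd1, Fzd4, Fzd5 and Fzd7 were above background as well. Fzd2 and Fzd8 were above background on the exon arrays only, Fzd9 on the gene arrays only and Fzd3 on the gene arrays and some exon arrays, and Fzd10 was within the range on both.

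Nuclear hormone receptors were above background for 10 of 20 genes (50%), a share near the 49.5% of all genes. Nr3c1, the glucocorticoid receptor, read 9.39, 10.04, 10.05, 9.51 and 9.69 on exon arrays and 10.08, 10.37 and 10.25 on gene arrays, the highest rank of the list on both types. Esr1, oestrogen receptor alpha, read 5.47, 5.61, 5.55, 5.08 and 5.57 on the exon arrays, at percentile 55.02, and 6.90, 6.88 and 6.87 on the gene arrays, at percentile 61.9. Pgr, the progesterone receptor and a target of Esr1, read 3.38, 2.95, 3.05, 3.14 and 3.34 on exon arrays and 5.09, 4.92 and 4.94 on gene arrays. The oestrogen receptor gene was thus modestly above background on all arrays and the progesterone receptor gene on none. Vdr, Rara, Rarg, Rxra, Rxrb, Thra, Ppard and Pparg were above background, with Rarg at 9.34 ± 0.42 and 7.87 ± 0.090 and Vdr at 8.64 ± 0.54 and 8.24 ± 0.23. Ppara (3.34 ± 0.14 and 4.86 ± 0.041), Nr3c2, the mineralocorticoid receptor (3.26 ± 0.23 and 4.92 ± 0.051), Thrb, Rxrg, Nr1h3, Nr1h4, Esrrb and Esrrg were within the range. Esrra was above background on the exon arrays (7.93 ± 0.23) and within the range on the gene arrays (5.28 ± 0.11).

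Of 10 surface genes through which tumour cells are known to meet platelets and thrombin, 3 were above background on both types (30%). F2r, the thrombin receptor PAR1, read 8.63, 8.98, 8.93, 8.64 and 8.76 on exon arrays and 9.80, 9.74 and 9.79 on gene arrays. Cd44, the hyaluronan receptor that can also bind selectins, read 11.73, 11.97, 11.95, 11.70 and 11.77 on exon arrays and 12.62, 12.57 and 12.68 on gene arrays. Both were above background on all 8 arrays, as was Plaur, the urokinase receptor (8.75 ± 0.29 and 8.40 ± 0.21). Cd24a, a ligand of P-selectin, was measured on the gene arrays alone and averaged 12.54 ± 0.057. F3, tissue factor, read 4.18, 5.15, 4.88, 5.06 and 4.68 on exon arrays and 6.17, 6.41 and 6.13 on gene arrays, so that it passed on all but exon array 1. Pdpn, podoplanin, the ligand of the platelet receptor CLEC-2, averaged 3.41 ± 0.10 and 4.57 ± 0.036 and was within the background range on every array. F2rl2 (3.26 ± 0.36 and 4.61 ± 0.019), Thbd, thrombomodulin, and Tfpi, tissue factor pathway inhibitor, were also within it. F2rl3, the receptor PAR4, was weakly above background on the gene arrays only, and Selplg passed on some exon arrays.

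The Ras and MAP kinase list had the largest share above background of the pathway lists, 19 of 20 genes (95%, against 49.5% of all genes). Nras, a Ras gene, read 10.96, 11.14, 11.22, 11.09 and 11.02 on exon arrays and 11.55, 11.53 and 11.56 on gene arrays, and Rras2, a relative, averaged 11.24 ± 0.22 and 11.38 ± 0.13. Rasa1 (10.83 ± 0.24 and 12.17 ± 0.046) and Nf1 (8.72 ± 0.23 and 10.25 ± 0.11), which switch Ras off, and Sos1 (8.44 ± 0.33 and 10.70 ± 0.037), which switches it on, were above background too. Dusp6, a phosphatase gene induced by ERK, read 10.42, 10.21, 9.86, 10.13 and 10.02 on exon arrays and 8.57, 8.32 and 8.65 on gene arrays. The ERK target genes Etv4 (9.14 ± 0.30 and 7.56 ± 0.16) and Etv5 (9.47 ± 0.56 and 8.77 ± 0.16) and the feedback inhibitors Spry1, Spry2 (8.70 ± 0.41 and 7.68 ± 0.18), Spred1 and Spred2 were above background on all arrays. The kinase genes Araf, Braf, Map2k1 and Map2k2, together with Rras, Mras and Sos2, completed the 19. Spry4 was the member with another call, above background on the gene arrays and on some exon arrays.

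More glycolysis genes were above background than within it, and several steps had one form above it and another within it. Of 29 genes measured on both types, 17 were above background on both (58.6%, against 49.5% of all genes) and 8 within the range on both. The median member ranked at percentile 77.9 of the exon table and 80.7 of the gene table. Pgk1, phosphoglycerate kinase, read 13.30, 13.05, 13.12, 13.33 and 13.06 on exon arrays and 12.92, 12.74 and 12.88 on gene arrays. Ldha, the muscle-type subunit of lactate dehydrogenase, read 12.55, 12.36, 12.43, 12.64 and 12.48 on exon arrays and 12.46, 12.40 and 12.55 on gene arrays, while Ldhb, the heart-type subunit, read 4.17, 3.55, 3.20, 3.42 and 3.86 on exon arrays and 4.80, 4.98 and 4.87 on gene arrays. Ldhb was in the background range on all 8 arrays, as was the testis form Ldhc. Slc2a1, the glucose transporter GLUT1, averaged 11.39 ± 0.22 and 11.36 ± 0.25, while Slc2a2 (3.33 ± 0.12 and 5.39 ± 0.012), Slc2a3 (3.36 ± 0.045 and 5.01 ± 0.017) and Slc2a4 (3.77 ± 0.11 and 5.16 ± 0.12) were within the range. Pkm, the pyruvate kinase of most dividing cells, averaged 13.20 ± 0.18 and 11.36 ± 0.034, against 4.06 ± 0.045 and 5.10 ± 0.070 for Pklr, the liver and red cell form, which passed on 1 exon array. Hk1 (7.97 ± 0.11 and 11.21 ± 0.13) and Hk2 (8.80 ± 0.39 and 8.52 ± 0.28) were above background and Hk3 was not. Of the enolases measured, Eno3 (11.11 ± 0.16 and 11.01 ± 0.081) was above it and the neuronal Eno2 (3.01 ± 0.047 and 4.78 ± 0.047) within it. The list also holds Eno1, Gapdh and Gpi1, which were measured on neither type, so the enolases cannot be fully compared. Aldoa, Aldoc, Tpi1, Pgam1 and all 3 phosphofructokinase genes (Pfkl, Pfkm and Pfkp) were above background. Slc16a1, the lactate transporter MCT1, averaged 10.91 ± 0.34 and 9.10 ± 0.17, while Slc16a3, MCT4, lay at the thresholds (4.06 ± 0.085 and 5.61 ± 0.011). The pyruvate dehydrogenase kinases Pdk1 and Pdk3 were above background, Pdk4 was within the range and Pdk2 gave another call, as did Pgam2.

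Genes of amino acid supply were above background for 13 of 15 (86.7%). Slc38a2, a neutral amino acid transporter, averaged 11.56 ± 0.24 and 11.87 ± 0.052, and Slc7a5 and Slc3a2, the chains of the LAT1 exchanger, 9.13 ± 0.35 and 10.23 ± 0.23 on exon arrays and 8.45 ± 0.19 and 9.76 ± 0.068 on the gene arrays. The serine synthesis genes Phgdh (11.28 ± 0.15 and 9.08 ± 0.17), Psat1 (10.52 ± 0.44 and 10.57 ± 0.041) and Psph were above background together with Asns, asparagine synthetase (10.47 ± 0.34 and 11.29 ± 0.045), and Shmt2 (10.57 ± 0.17 and 10.26 ± 0.027). Psph read 7.49, 7.23, 7.07, 7.999 and 5.42 on exon arrays and 8.46, 8.19 and 8.22 on gene arrays, with exon array 5 the lowest. Slc1a5, Shmt1 and Glul were above background too. The cystine transporter gene Slc7a11 averaged 5.38 ± 0.50 and 7.68 ± 0.32. Arg2, mitochondrial arginase, was above background (5.90 ± 0.57 and 7.29 ± 0.29) and Arg1, the liver form, within the range (3.19 ± 0.021 and 4.94 ± 0.034), as was Slc38a1 (3.21 ± 0.093 and 4.78 ± 0.081).

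The lipid list was brightest in its synthesis genes. Of 20 measured on both types, 11 were above background on both (55%, against 49.5% of all genes). Acly, which makes cytosolic acetyl-CoA, averaged 12.06 ± 0.032 and 11.08 ± 0.0093, Fasn, fatty acid synthase, 11.09 ± 0.33 and 10.14 ± 0.012, and Acaca, acetyl-CoA carboxylase, 9.32 ± 0.30 and 10.83 ± 0.12. Of the stearoyl-CoA desaturases, Scd1 read 11.90, 11.87, 11.94, 11.49 and 11.98 on exon arrays and 12.21, 12.21 and 12.17 on gene arrays and Scd2 averaged 12.51 ± 0.11 and 11.67 ± 0.062. The cholesterol synthesis genes Fdft1 (11.50 ± 0.34 and 12.29 ± 0.013), Sqle (11.46 ± 0.16 and 12.07 ± 0.067) and Hmgcs1 (10.19 ± 0.23 and 10.53 ± 0.11) were above background on all arrays. These 8 synthesis genes ranked between percentiles 88.3 and 99.8 on both types. Lpl, lipoprotein lipase (3.36 ± 0.18 and 4.72 ± 0.043), Cd36, the fatty acid translocase (2.99 ± 0.15 and 4.64 ± 0.044), and Fabp4, the adipocyte fatty acid-binding protein (3.02 ± 0.13 and 4.74 ± 0.059), were within the background range, with Fabp1, Fabp2 and Cpt1c. Fabp5, the epidermal form, averaged 8.91 ± 0.47 and 10.09 ± 0.11, and Cpt1a and Scd3 were also above background. Fabp3 was above background on the exon arrays only, Acacb on the gene arrays and some exon arrays, and Scd4 on some exon arrays.

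**Figure D4:**
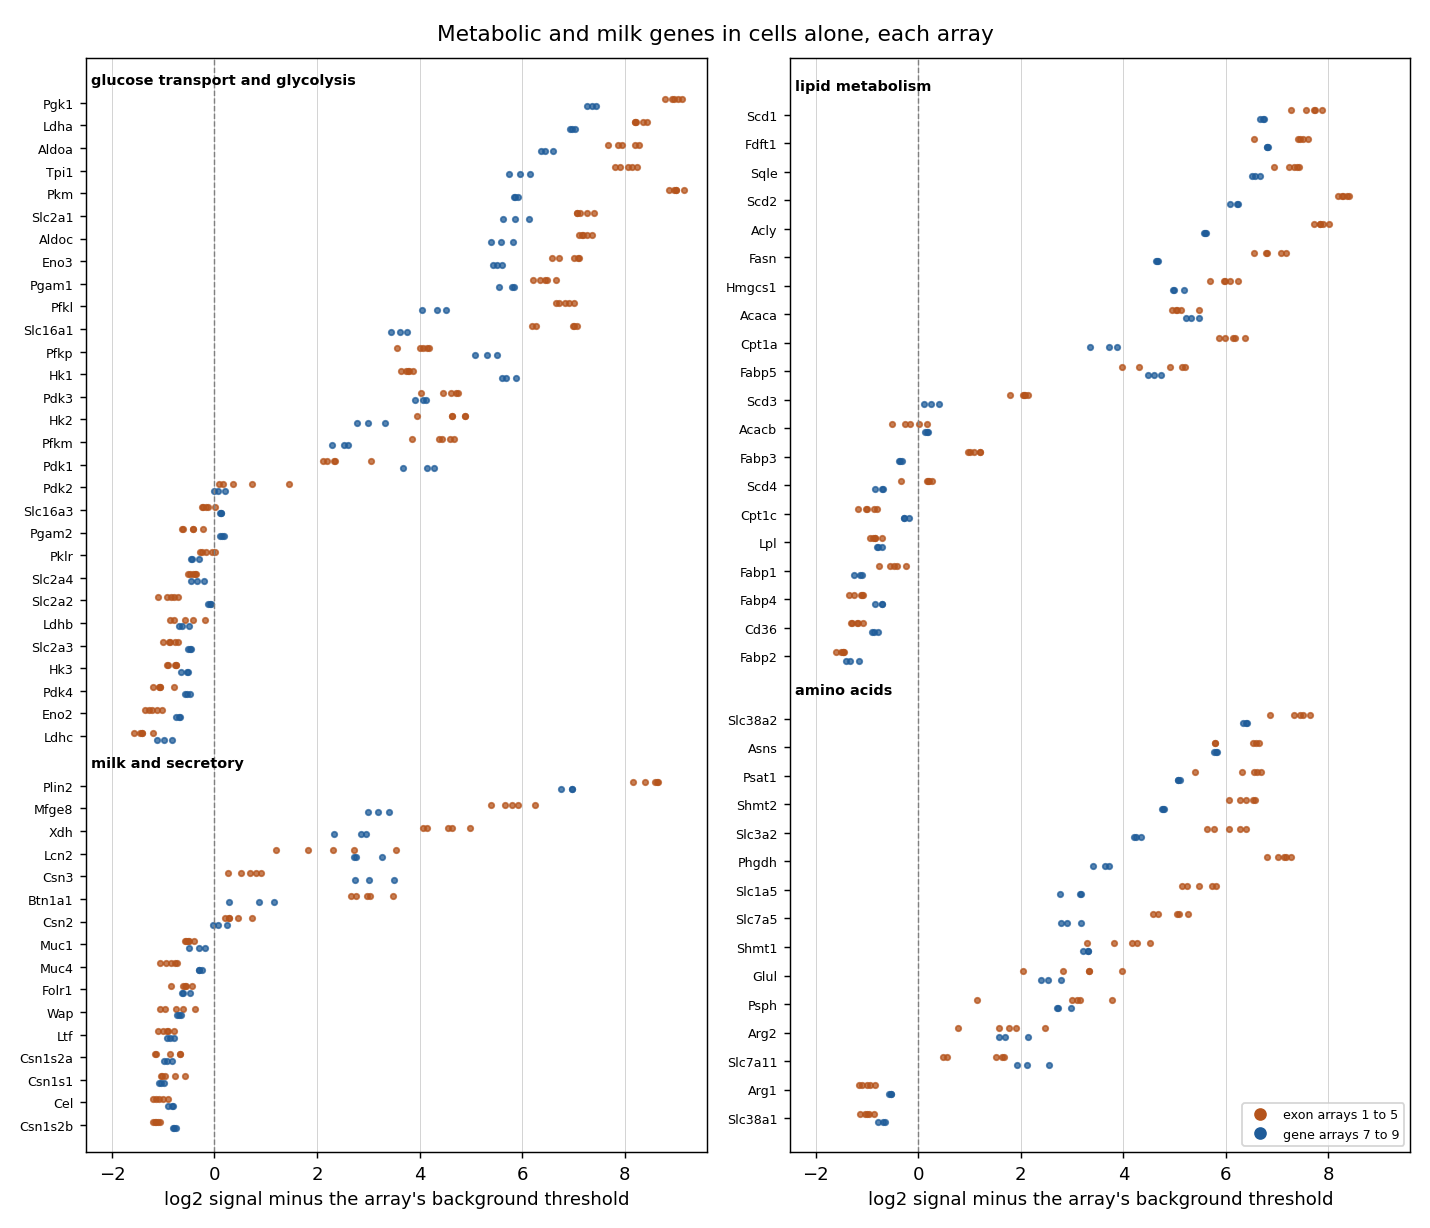
Each point is 1 array of cells alone, and the horizontal axis is its log2 signal minus that array's background threshold (dashed line at 0), with exon arrays 1 to 5 in orange and gene arrays 7 to 9 in blue. Pgk1, Ldha, Slc2a1, Plin2, Scd1 and Slc38a2 lie far right of the line on all 8 arrays, while Ldhb, Slc2a3, Wap, Cd36, Fabp4 and Arg1 lie left of it on all 8.

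The 15 genes with the highest mean rank over both array types were Rpl10a, Eef1a1, Dynap, Pgk1, Ube2d3, Txn1, Atp5b, Actb, Hspa8, Rpl4, Anxa1, Malat1, Ywhae, Rpl5 and Ppia. Dynap, a membrane protein gene, read 12.76, 12.93, 12.91, 13.07 and 12.69 on exon arrays and 12.99, 12.88 and 13.06 on gene arrays. Anxa1, annexin A1, read 12.69, 12.43, 12.77, 12.71 and 12.42 on exon arrays and 12.76, 12.82 and 12.88 on gene arrays. Malat1, a nuclear long non-coding RNA, read 13.66, 13.76, 13.94, 13.56 and 13.24 on exon arrays and 12.54, 12.74 and 12.55 on gene arrays. The 9 housekeeping genes on the list and measured on both types were all above background.

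The array types ranked genes in a similar order. Across 17491 genes, which are not independent replicates, the mean log2 signals had a Pearson correlation of 0.895 and a Spearman correlation of 0.890. Between single exon and gene arrays the Spearman correlation ran between 0.870 and 0.888 over 15 pairs. It was 0.681 within the 8650 genes above background on both types and 0.427 within the 6591 in the background range on both. Calls were the same for 87.7% of genes. Above on the exon arrays and within the range on the gene arrays were 406 genes, and 364 had the opposite calls. The median difference in percentile was 7.98 points, and 43 genes lay more than 50 points apart, 17 higher on the exon arrays and 26 higher on the gene arrays. Of the 1749 brightest 10% on each type, 1032 were shared, which is 59% of each.

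The largest disagreements in rank were all-or-none. Atp5l, a subunit of ATP synthase, read 2.85 ± 0.13 on the exon arrays, at percentile 2.17, and 12.79 ± 0.040 on the gene arrays, at percentile 99.8. Kcnma1, the pore subunit of a calcium-activated potassium channel, read 3.11, 3.07, 2.95, 3.03 and 3.10 on exon arrays and 13.54, 13.56 and 13.57 on gene arrays. There the probe set assigned to Kcnma1 by the annotation had the highest mean signal of all genes. Rpl7, a ribosomal protein gene, read 3.30 ± 0.29 on exon arrays and 12.54 ± 0.046 on the gene arrays. These genes were within the background range on every exon array and in the top percentile of the gene arrays. Also higher on the gene arrays, by 63.9 to 81.2 points, were Morrbid, Dennd4a, Tmem267, Gm8995, A530032D15Rik, 4930594M22Rik and Camta1. Higher on the exon arrays were 2410018L13Rik, Acat3, Stk33, Dab1, Cpn1, Set, Prss3, Irf2bpl, Skor2 and Pcdhb11, by 56.3 to 68.0 points. Irf2bpl, a gene of nuclear regulation, read 11.46, 11.27, 11.24, 11.06 and 12.32 on the exon arrays, at percentile 98.7, and 5.37, 5.09 and 5.19 on the gene arrays, at percentile 41.2. All 20 were above background on one type and within the range on the other. What the probe sets have in common, and whether each one reads the gene it is assigned to, was not tested.

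**Figure D5:**
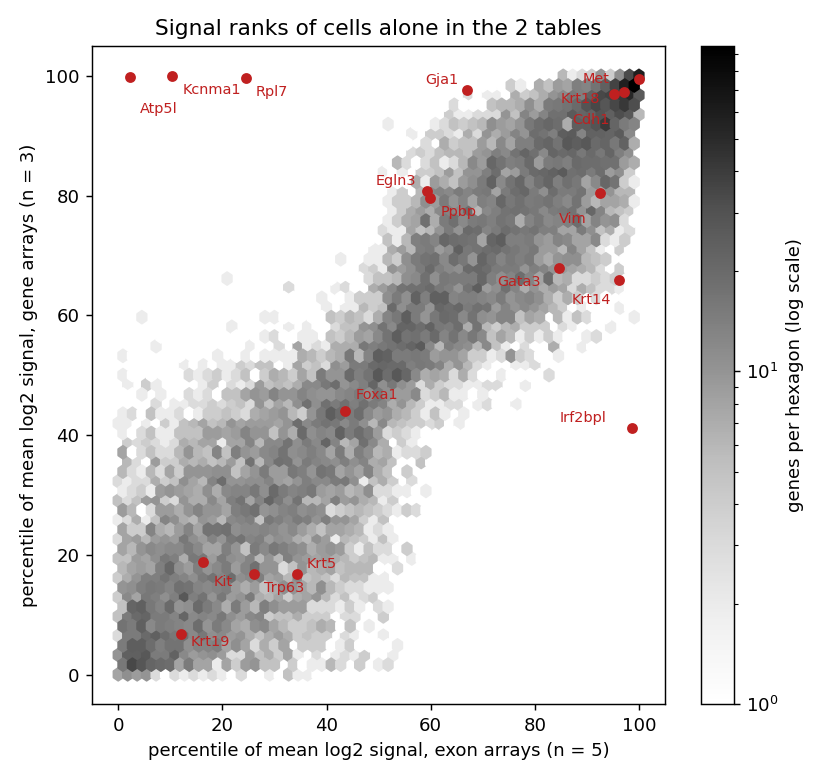
Percentile of mean log2 signal on the exon arrays (horizontal axis, n = 5) and on the gene arrays (vertical axis, n = 3) for 17491 genes in cells alone, with the shade giving the number of genes per hexagon on a log scale. Most genes lie near the diagonal with Krt18, Met and Cdh1 at the top right and Krt19 at the bottom left, while Atp5l, Kcnma1 and Rpl7 lie at the top left and Irf2bpl at the lower right.

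The signals of untreated cells were not the same on every array. Whether the spread lies in the cells or in the arrays was not tested. An SD of at least 0.5 was reached by 1208 of the 9482 genes above background on the exon arrays (12.7%) and by 64 of 10108 on the gene arrays (0.633%). The gene with the largest spread, 4933409K07Rik, read 12.25, 12.70, 12.71, 7.41 and 7.06 on the exon arrays. Egln3, a prolyl hydroxylase that targets hypoxia-inducible factors, read 5.12, 4.29, 4.84, 7.80 and 8.65 on exon arrays and 9.15, 9.37 and 8.80 on gene arrays. In both genes arrays 4 and 5 stood clear of arrays 1 to 3, low for 4933409K07Rik and high for Egln3. These genes were picked for their spread among the same arrays, and the share of all genes split in this way was not counted. Vim had the largest spread of the list members, with an SD of 1.49 on exon arrays and 1.21 on the gene arrays. Stxbp3, a syntaxin-binding protein gene, read 9.18, 10.03, 10.22, 10.60 and 6.60 on the exon arrays. Tcf20, a transcriptional coregulator gene, read 6.94, 8.06, 7.88, 8.51 and 10.77 there. Array 5 was the lowest exon array for Stxbp3 and the highest for Tcf20. Platr4, Gm8948, E130317F20Rik, Arid1a and Ttc30a2 completed the 10 largest, with SDs between 1.35 and 1.53.

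On the gene arrays the 5 largest spreads were those of Casp1, Mt2, Vim, Serpinb2 and Trpa1. Casp1, which encodes the inflammatory caspase, read 6.83, 8.49 and 5.68 on gene arrays 7 to 9. Mt2, metallothionein 2, read 8.68, 10.98 and 10.58 on the gene arrays and 9.54, 8.85, 8.08, 6.98 and 6.94 on the exon arrays. Trpa1, an irritant-gated cation channel, read 7.58, 8.26 and 6.17 on the gene arrays and 4.77, 6.84, 6.87, 3.18 and 3.32 on the exon arrays. For Casp1, Vim and Trpa1, gene array 8 was the highest and array 9 the lowest, and for Mt2 array 8 was the highest and array 7 the lowest. Serpinb2, an inhibitor of plasminogen activators, ran the other way, with array 8 the lowest at 7.34. Array 9 was at an extreme of 4 of the 5 and array 8 of all 5, in genes chosen for their spread among the same 3 arrays. With 3 arrays only the middle one is not at an extreme of a gene, so such counts are high by construction. The count of genes with an SD of at least 0.5 was 35 without array 8, against 99 without array 7 and 99 without array 9.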

How the data were processed

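RNA was extracted with RNeasy kits and hybridised to Affymetrix mouse exon or gene arrays, per the labels' protocols. The deposited values are log2 signals per probe set, as the authors normalized them. The tools named are RMA with Partek 6.4 for the exon arrays and RMA with Partek 6.5 for the gene arrays, per the submitters' processing notes. Exon and gene arrays were deposited as separate tables, so no test crosses them. The exon table holds 44343 probe sets, of which 22781 have 1 gene symbol in the platform annotation, 2085 several and 19477 none. For the gene table these numbers are 35556, 21789, 1621 and 12146. A gene was represented by whichever of its probe sets had the greatest mean signal across the table. Among the main steps run here, that choice alone used the arrays with platelets. The alternatives with rescaled arrays used them too. The background threshold of each array is the 95th percentile of the chemosensory receptor genes (985 for exon arrays, 1205 for gene arrays). No p-value enters these calls. The label gives the groups, no groups were compared, and precision is limited by how many arrays there are.

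The rule for named genes takes, in each of 30 lists (507 genes), the marker genes, up to 6 members of highest and 4 of lowest mean rank and those whose calls differ between types, then the 15 genes of highest mean rank, the 10 largest rank differences each way and the 10 (exon) or 5 (gene) largest SDs. Members and lists were chosen with earlier results of these data known. Further members were named after their values were seen. Alternatives were another percentile, another background list, limma 3.58.1 (R 4.3.3) against the threshold, the median probe set of a gene, rescaled arrays and each array left out. The calls were tested on simulated data. Python 3.11.15 with pandas 2.3.3, numpy 2.4.6 and scipy 1.17.1 was used.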

Additional observations from a re-analysis of the deposited data

Results flagged for a closer look

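Of 199 genes given values and checked on the 5 exon arrays, 14 had 1 array whose gap to its nearest neighbour was more than 0.71 of the whole range of the gene. That is 7.04%, where chance gives about 5%, or 1 in 20. Array 1 was the one apart in 7 of them, arrays 4 and 5 in 3 each, array 2 in 1 and array 3 in none. Array 1 was the highest for Cdh1 at 11.10 (next 10.36), Cldn3 at 10.83, Elf5 at 3.69 and Ppara at 3.58, the last 2 within the background range. It was the lowest for Fdft1 at 10.89 (next 11.62), Il6st at 7.98 and Psat1 at 9.75. Array 4 was the lowest for Esr1 at 5.08 (next 5.47), Scd1 at 11.49 and Shmt2 at 10.28. Array 5 was the highest for Rarg at 10.08 (next 9.26) and Tjp1 at 9.52 and the lowest for Fzd6 at 9.72. Array 2 was the lowest for Slc16a3 at 3.90. Leaving out the array that stood apart changed the call of none of the 14 genes. The cause was not tested.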

How the results depend on the processing

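Counts of genes above background kept within 1.5 times of the values given for every alternative run. With the 99th percentile of the chemosensory receptors as threshold they were 8075 on exon arrays, 8547 on gene arrays and 7255 on both, and with the 90th percentile 10156, 10852 and 9114. A one-sided limma test of the margin over the threshold gave 9591, 9976 and 8649, with 8593 of the genes above background on both types shared. Leaving out each array in turn gave 9492 to 9616 on exon arrays, 10162 to 10245 on gene arrays and 8651 to 8710 on both, and the Spearman correlation between types ran from 0.8886 to 0.891. That correlation was 0.681 over genes above background on both types alone, a range narrowed by construction, and 0.896 over the 15101 genes with 1 probe set on each type (chosen after seeing the data). The number of genes with an SD of at least 0.5 was the least stable result. It ran from 936 to 1589 with single exon arrays left out, and from 35 to 99 with single gene arrays left out, 99 without array 7, 35 without array 8 and 99 without array 9. With exon arrays 4 and 5 only (chosen after seeing the data) it was 2333, and the cause was not tested. Under the 99th percentile 5 of 30 lists changed their count above background on both types by more than 1.5 times, to 1 stratified keratin, 3 milk genes, 6 Notch and Wnt receptors, and 0 on the platelet and fibroblast lists. Among the genes that lost the call on gene arrays were Krt10, Notch3, Crb3, Nectin1, Nectin4 and Ovol1. No paired analysis was possible because no groups were compared. Near-identical family members can share probes.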

Other observations

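Gene families, read from the root of the symbol where at least 30 genes were measured on both types, differed in the share above background. All 47 genes of the mitochondrial ribosome with the root Mrpl were above background on both types. The protein sorting genes Vps had 34 of 35 (97.1%), the mediator genes Med 29 of 30 (96.7%) and the translation initiation genes Eif 40 of 44 (90.9%), against 49.5% of all genes. At the other end stood the taste receptors Tas with 0 of 36, the vomeronasal receptors Vmn with 0 of 100 and the olfactory receptors Olfr with 5 of 838 (0.597%), the last 2 of which set the threshold. The keratins had 4 of 44 (9.09%), the collagens Col 5 of 43 (11.6%), the cytochrome P450 genes Cyp 8 of 62 (12.9%) and the orphan receptors Gpr 8 of 67 (11.9%). The solute carriers Slc, with 144 of 351 (41%), were near the middle.

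By chromosome, and without the chemosensory receptors, the share above background on both types ran from 50.8% to 56.9% except on chromosome 7 (45%), chromosome 6 (43.7%) and the X (39.7%, 238 of 599 genes). None of 5 genes of the Y was above background on both types, although Uba1y passed on every exon array and Sry on every gene array.

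Of 296 microRNA genes with a probe set on the gene arrays, 55 were above background on every array (18.6%, against 50.7% of all genes there) and 218 within the range. These probe sets read the gene or its precursor, not the mature RNA. Mir31 read 8.72, 8.82 and 9.10 on gene arrays 7 to 9. The 4 genes analysed of the miR-200 family, a family known to repress Zeb1 and Zeb2 in epithelial cells, were within the background range. Their means were 5.23 ± 0.077 for Mir200a, 5.26 ± 0.11 for Mir200b, 4.96 ± 0.072 for Mir200c and 4.73 ± 0.050 for Mir141 (SD, n = 3). Mir205 averaged 4.56 ± 0.090. They were chosen with their values known, and their mature sequences from RefSeq are shown because they share seeds (bases 2 to 8, in capitals).
miR-200a-3p: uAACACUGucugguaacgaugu
miR-141-3p: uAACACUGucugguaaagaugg
miR-200b-3p: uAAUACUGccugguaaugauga
miR-200c-3p: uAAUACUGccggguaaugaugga
miR-31-5p: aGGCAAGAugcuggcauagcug
The seed is the same in miR-200a and miR-141, and the other seed is shared by miR-200b and miR-200c. Mature miR-31, whose gene was the second brightest of the microRNA genes, has a seed of its own.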
